A study of Mus musculus with 12 samples.

Results

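Kupffer cells, the macrophages that reside in the liver sinusoids, were followed here through 10 genes that mark them or mark macrophages in general, namely *Clec4f*, *Vsig4*, *Timd4*, *Marco*, *Cd163*, *Cd5l*, *C1qa*, *C1qb*, *C1qc* and *Adgre1*. The genes were taken by symbol, with earlier results of these data known, and each matched 1 of the 45777 genes in the deposited count table. The table holds RNA-seq of whole livers from 12 male C57BL/6 mice aged 10 to 12 weeks, in 4 groups of 3. WT mice and mice labelled Gα12 knockout (KO, Gα12-/-, a deletion of *Gna12*) were fasted overnight, given 1 intraperitoneal injection of either vehicle or acetaminophen (APAP, 300 mg/kg), and the livers were taken 6 h after APAP. The KO mice were compared with age-matched WT littermates, all mice of 1 sex and strain were used, and no cells were sorted, so each value is an average over hepatocytes and every other cell of the tissue. In such data, fewer Kupffer cells and less RNA per Kupffer cell cannot be told apart.

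Kupffer cells sit on the sinusoidal endothelium, take up dying cells, bacteria and iron-laden red cells from the blood, and are renewed locally in the healthy liver. They keep their identity through signals from neighbouring endothelial, stellate and hepatocyte cells, and through transcription factors such as PU.1. When Kupffer cells are lost, monocytes from the blood enter the liver and only gradually acquire genes such as *Clec4f* and *Timd4*, whereas the complement C1q chains and *Adgre1* are shared by many tissue macrophages. APAP in overdose kills hepatocytes around the central veins, through a reactive metabolite made by cytochrome P450 enzymes, and the remaining macrophages meet that debris.

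RefSeq (GRCm38.p6) promoter sequences were matched for 8 of the 10 genes, all but *C1qa* and *Adgre1*. Of these, 4 are shown as examples of the motifs counted below, *C1qb* and *Cd5l* with both, *Vsig4* and *Clec4f* with 1 of them. Each sequence holds the 250 bases upstream of the start that the promoter table uses, written 5′ to 3′ on the strand of the gene. Capitals mark GAGGAA, a core of the PU.1 site, or TGCTGA, a half-site of MAF proteins, or the reverse complement of either, and no marked motif overlaps another in these 4 windows.
*C1qb* (chr4:136886201-136886450, minus strand): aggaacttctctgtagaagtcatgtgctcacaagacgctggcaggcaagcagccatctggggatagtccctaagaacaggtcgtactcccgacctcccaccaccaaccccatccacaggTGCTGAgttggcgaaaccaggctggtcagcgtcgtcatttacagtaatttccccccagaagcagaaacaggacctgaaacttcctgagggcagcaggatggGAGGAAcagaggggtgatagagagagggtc
*Cd5l* (chr3:87357631-87357880, plus strand): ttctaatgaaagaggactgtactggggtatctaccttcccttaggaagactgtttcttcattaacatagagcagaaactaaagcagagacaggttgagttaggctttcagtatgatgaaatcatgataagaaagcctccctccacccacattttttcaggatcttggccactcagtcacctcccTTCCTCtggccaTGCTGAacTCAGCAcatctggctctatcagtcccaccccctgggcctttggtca
*Vsig4* (chrX:96293439-96293688, minus strand): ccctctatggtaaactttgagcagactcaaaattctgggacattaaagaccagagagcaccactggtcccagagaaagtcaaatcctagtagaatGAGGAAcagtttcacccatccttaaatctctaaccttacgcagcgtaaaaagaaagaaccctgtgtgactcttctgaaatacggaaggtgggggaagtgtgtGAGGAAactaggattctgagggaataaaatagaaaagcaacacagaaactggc
*Clec4f* (chr6:83656117-83656366, minus strand): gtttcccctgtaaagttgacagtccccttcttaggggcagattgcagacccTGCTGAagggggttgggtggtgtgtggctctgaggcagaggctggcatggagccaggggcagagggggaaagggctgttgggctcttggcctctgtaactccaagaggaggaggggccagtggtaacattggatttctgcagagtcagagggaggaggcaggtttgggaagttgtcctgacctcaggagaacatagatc

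On either strand, GAGGAA was in 5 of the 8 windows (*Vsig4*, *Marco*, *Cd5l*, *C1qb* and *C1qc*), against 23.1% of the 27025 upstream windows of all genes. TGCTGA was in 4 of the 8 (*Clec4f*, *Timd4*, *Cd5l* and *C1qb*), against 15.8% of all windows. TATAAA, the TATA box, was in 0 of the 8, against 13% of all windows. These matches describe letters in the window and are not evidence of binding, and the windows were too few for more than a description.

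All 12 libraries were deep, with 49737950 to 69566079 counts each. In WT livers the totals were higher after APAP (62593040 to 69566079) than with vehicle (51555281 to 53487025), whereas under the KO label they overlapped. The targeted gene was not lower under the KO label, with 1193 to 4373 *Gna12* counts in the WT livers and 2472 to 4003 under the KO label, so the libraries are called by their label throughout and every direction between genotypes rests on that label. Replicate 1 of the WT livers given APAP stood apart by 238212 counts of the haemoglobin gene *Hba-a1*, against 2551 to 7713 in the other 11 livers. Replicate 2 of the WT livers given vehicle stood apart by its neutrophil markers, which summed to 976 CPM (read counts scaled to a common library size) against 3.89 and 4.06 CPM in the other WT livers given vehicle. Of that sum, 956 CPM were *Lcn2*, which hepatocytes also make in the acute phase, and the other 12 markers gave 20.3 CPM, against 2.1 and 1.24 CPM. No source used here says that the replicate livers came from separate experiments, and p-values measure the spread between these livers.

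Per unit of transcript length, the 10 genes fell into a high and a low tier. On the deposited TPM scale, *C1qb* had the highest mean level over the 12 livers (37.3 TPM), followed by *Clec4f* (36.6 TPM), *C1qc* (35.0 TPM), *Cd5l* (31.6 TPM) and *C1qa* (30.1 TPM). Neighbours among these 5 were not separated, since each held its place above the next in only 6 to 9 of the 12 livers. *Vsig4* followed at 14.1 TPM, below *C1qa* and above *Cd163* in 12 of 12 livers. *Cd163* (5.2 TPM), *Adgre1* (2.96 TPM), *Marco* (2.53 TPM) and *Timd4* (2.02 TPM) formed the low tier, in which each neighbour kept its place in 6 to 10 of the 12 livers. All 10 passed the filter on low counts in every comparison, the lowest count in any liver being 44 reads of *Marco*.

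*Clec4f* (chr6:83644542-83656116), a C-type lectin receptor found on Kupffer cells and on few other cells of the mouse, stood at 58.2, 33.1 and 49.7 CPM in replicates 1 to 3 of WT vehicle and at 75.3, 68.3 and 29.6 CPM in WT APAP. Under the KO label it stood at 72.2, 54.2 and 57.8 CPM with vehicle and at 61.0, 33.7 and 45.9 CPM after APAP. The groups overlapped in both genotypes, and in CPM the highest and the lowest of the 12 livers, 2.54-fold apart, were both livers of WT APAP. On the TPM scale the highest was replicate 1 of KO vehicle (59.1 TPM) and the lowest replicate 2 of WT vehicle (20.1 TPM). *Vsig4* (chrX:96247201-96293438), the complement receptor CRIg that captures opsonised bacteria, stood at 11.7, 7.88 and 11.0 CPM in WT vehicle and at 23.0, 15.6 and 8.81 CPM in WT APAP. With the KO label it stood at 14.9, 9.91 and 14.9 CPM in vehicle and at 13.4, 10.5 and 9.12 CPM in APAP. In CPM, replicate 3 of WT APAP was the lowest of its group for both genes, under the WT vehicle range for *Clec4f* and inside it for *Vsig4*.

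The receptors for dying cells and debris were of lower level and wider spread. *Timd4* (chr11:46810786-46844333), which binds phosphatidylserine on dying cells, stood at 3.06, 1.63 and 1.90 CPM in WT vehicle and at 4.33, 3.93 and 1.14 CPM in WT APAP. It stood at 4.57, 2.20 and 1.63 CPM under the KO label with vehicle and at 1.96, 2.48 and 1.61 CPM after APAP. *Timd4* ran 3.99-fold from the lowest liver, in WT APAP, to the highest, in KO vehicle, and no group was separate from another. *Cd163* (chr6:124304636-124330529), the receptor for haemoglobin bound to haptoglobin, stood at 13.8, 5.93 and 10.7 CPM in WT vehicle and at 18.0, 26.0 and 4.85 CPM in WT APAP. It stood at 21.4, 7.40 and 9.19 CPM under the KO label with vehicle and at 19.4, 12.4 and 13.6 CPM after APAP. The WT livers given APAP held both the highest and the lowest *Cd163* value of the 12. *Marco* (chr1:120474538-120505024), a collagenous scavenger receptor for particles and bacteria, stood at 6.35, 3.23 and 1.68 CPM in WT vehicle and at 2.16, 3.09 and 3.58 CPM in WT APAP. It stood at 5.86, 1.32 and 0.972 CPM under the KO label with vehicle and at 2.46, 1.98 and 1.61 CPM after APAP. *Marco* was highest in replicate 1 of each vehicle group and had the widest range of the 10 genes, 6.53-fold.

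Secreted products followed the same livers. *Cd5l* (chr3:87357881-87371074), which encodes the macrophage protein AIM, stood at 42.2, 31.6 and 32.7 CPM in WT vehicle and at 57.6, 60.0 and 20.7 CPM in WT APAP. It stood at 73.8, 33.7 and 34.6 CPM under the KO label with vehicle and at 33.0, 27.8 and 19.0 CPM after APAP, so that all 3 KO-labelled livers given APAP lay below all 3 given vehicle, with a gap only from 33.0 to 33.7 CPM. On the TPM scale these groups overlapped, with 31.9 TPM in replicate 1 after APAP and 22.7 TPM in replicate 3 with vehicle. The 3 chains of C1q, the recognition molecule of the classical complement pathway, are encoded side by side on chromosome 4 (*C1qb* chr4:136880126-136886200, *C1qc* chr4:136889801-136892936 and *C1qa* chr4:136895916-136898844). *C1qb* stood at 22.8, 20.3 and 18.2 CPM in WT vehicle, at 40.1, 31.7 and 19.8 CPM in WT APAP, at 30.6, 21.5 and 22.3 CPM under the KO label with vehicle and at 26.9, 23.8 and 22.6 CPM after APAP. *C1qa* ranged from 12.8 to 27.6 CPM and *C1qc* from 14.6 to 34.3 CPM over the 12 livers, with replicate 1 of WT APAP highest for both. On the TPM scale that replicate stood at 25.4 and 31.9 TPM, against 44.8 and 57.4 TPM in replicate 1 of KO vehicle. The ratio of *C1qb* to *C1qa* on the TPM scale ran from 1.11 to 1.51, and that of *C1qc* to *C1qa* from 0.841 to 1.38. After APAP the ratio of *C1qb* to *C1qa* was 1.36 to 1.51 in WT and 1.11 to 1.15 under the KO label. That of *C1qc* to *C1qa* was 1.26 to 1.38 in WT and 0.841 to 1.08 under the KO label. With vehicle the labels overlapped in both ratios, and no ratio was tested.

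*Adgre1* (chr17:57358581-57483529), which encodes the adhesion receptor F4/80 used to stain mouse macrophages, stood at 7.59, 2.66 and 4.25 CPM in WT vehicle and at 6.57, 8.14 and 2.51 CPM in WT APAP. Under the KO label it stood at 11.1, 5.90 and 7.27 CPM with vehicle and at 5.73, 3.20 and 3.46 CPM after APAP. The KO-labelled groups did not overlap in CPM, although the highest value after APAP and the lowest with vehicle were close (5.73 and 5.90 CPM). On the TPM scale they overlapped, with 3.49 TPM in replicate 1 after APAP and 2.99 TPM in replicate 3 with vehicle. The plot of the 10 genes by liver shows these values.

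**Figure D1:**
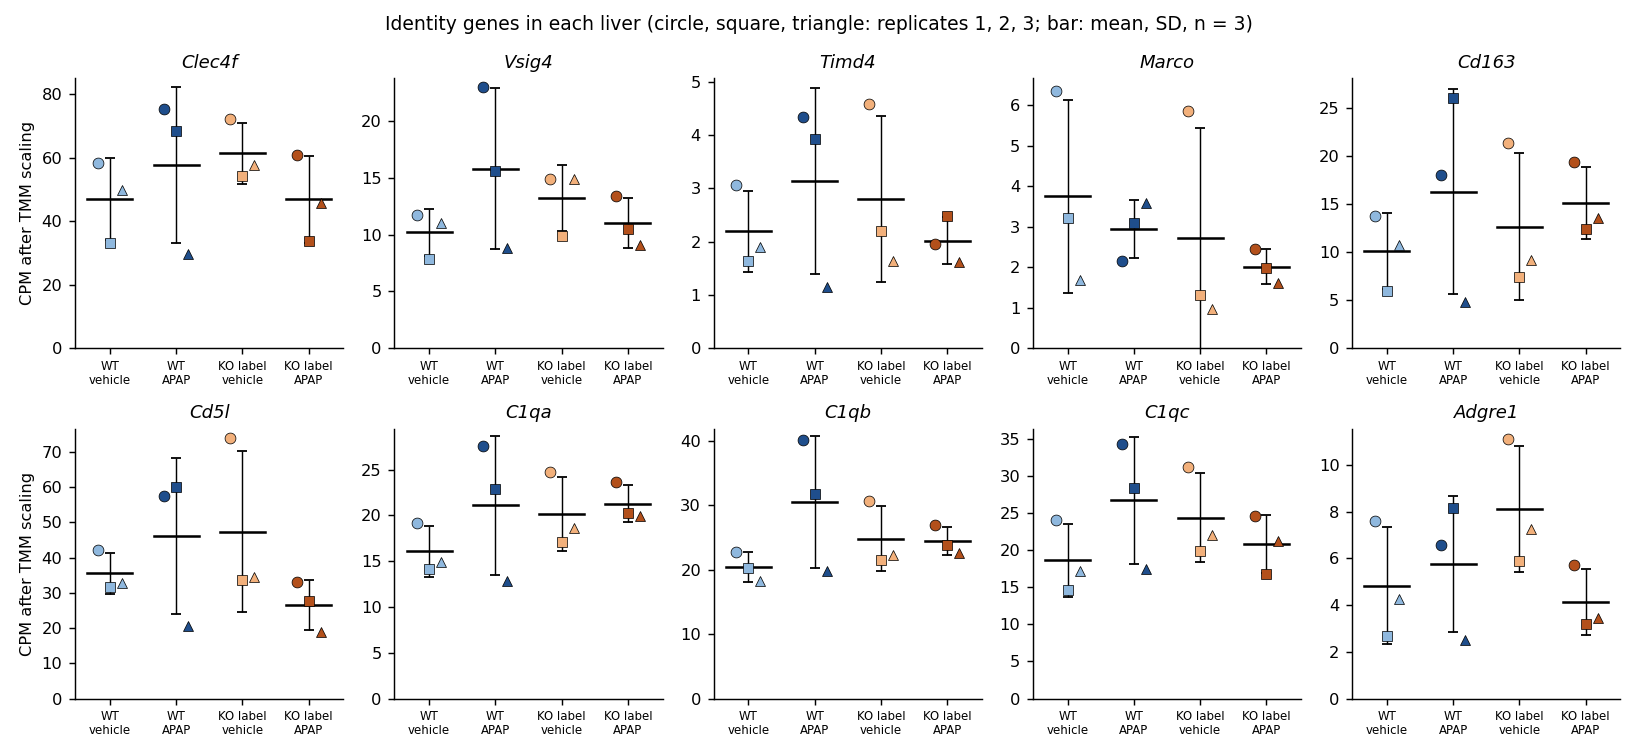
Level of each of the 10 genes in the 12 livers, in CPM after TMM scaling on a linear axis from 0, with 1 symbol per replicate (circle, square and triangle for replicates 1, 2 and 3), a bar for the group mean and a line for the SD (n = 3), cut at 0 where it would pass below. In WT APAP the triangle lies far below the other symbols for *Clec4f* (29.6 against 75.3 and 68.3 CPM), and in both vehicle groups the circle is the highest for *Marco*.

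Whether APAP changed these genes in WT livers was asked first. No member passed edgeR's quasi-likelihood test at a Benjamini-Hochberg adjusted p under 0.05 (0 of 10), against 2.05% of the 15693 genes tested. At an unadjusted p under 0.05 there were also 0 of 10, against 18.0% of all genes. Their log2 fold changes, APAP relative to vehicle, were above 0 for 9 of 10, with a median of 0.46 (range -0.34 to 0.69) beside a median of 0.03 over all genes. The largest were those of *Cd163* (0.69, 95% interval -0.62 to 2.01), *Vsig4* (0.64, -0.17 to 1.45) and *C1qb* (0.59, -0.02 to 1.20, adjusted p = 0.296 by edgeR), and the only one below 0 was that of *Marco* (-0.34, -1.44 to 0.76). All 10 intervals crossed 0, and together they reached from -1.44 to 2.01 on the log2 scale. The median was 0.20 without replicate 1 and 0.75 without replicate 3 of WT APAP, and 0.33 without replicate 2 of WT vehicle. With limma on the deposited TPM values it was 0.23 to 0.24.

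Under the KO label the values lay the other way. Again 0 of 10 members passed, against 22.6% of 15665 genes, and 2 of 10 had an unadjusted edgeR p under 0.05, against 37.1% of all genes. The log2 fold changes were below 0 for 8 of 10, with a median of -0.32 (range -0.97 to 0.27) beside -0.02 over all genes. *Adgre1* came nearest to the threshold (-0.97, SE 0.30, adjusted p = 0.0518 by edgeR), followed by *Cd5l* (-0.83, SE 0.33, adjusted p = 0.108 by edgeR). They were also the 2 of 10 members without overlap between the groups in CPM, both lower after APAP, against 21.1% of all genes tested that were lower without overlap. DESeq2's Wald test called both, with adjusted p = 0.0134 for *Adgre1* and 0.0386 for *Cd5l*, and 21.7% of the genes it tested. The C1q chains moved least, at 0.09 for *C1qa*, -0.01 for *C1qb* and -0.21 for *C1qc*, with intervals that lay between -0.69 and 0.46. Replicate 1 of the KO vehicle livers, the highest of its group for 9 of the 10 genes, decided the sign of the median, which was 0.06 without it. In that fit *Cd5l* stood at -0.33 and *Adgre1* at -0.64, and *Cd163* was called higher after APAP (0.90, adjusted p = 0.0372 by edgeR).

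Between genotype labels, 0 of 10 members passed after APAP, against 0.0309% of 16174 genes, and 0 of 10 with vehicle, against 0.0262% of 15262 genes. Unadjusted p was under 0.05 by edgeR for 0 of 10 in each comparison, against 3.31% of all genes after APAP and 7.56% with vehicle, and DESeq2 called 0 of 10 in each. After APAP the members' log2 values, WT relative to the KO label, ran from 0.00 to 0.81 with a median of 0.43, the highest being *Cd5l* (0.81, 95% interval -0.11 to 1.73). With vehicle, 9 of 10 were below 0 and the median was -0.37, with *Adgre1* lowest (-0.74, -1.66 to 0.17) and *Marco* alone above 0 (0.45, -1.24 to 2.14). Both comparisons use the same KO-labelled and WT livers as the tests of APAP, so the opposite signs are not separate evidence. Without replicate 1 of WT APAP the median after APAP was 0.15, and without replicate 1 of the KO vehicle livers the median with vehicle was -0.12. Without replicate 2 of WT vehicle the latter was -0.24.

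The difference of the APAP effect between labels was tested directly as an interaction over the 12 livers. No member passed in edgeR (0 of 10, adjusted p from 0.872 to 0.992), nor did any of 16509 genes (0.0%), and unadjusted p was under 0.05 for 0 of 10 members and 5.14% of all genes. DESeq2 called 8 genes in all, none of them a member. All 10 interaction values were above 0, meaning a more positive log2 change in WT, with a median of 0.71, as were 51.4% of all genes. Among them *Adgre1* (1.22, 95% interval -0.20 to 2.64) and *Cd5l* (1.21, -0.02 to 2.44) were highest. Over all 12 livers with the label as a term, 0 of 10 members passed for APAP against vehicle, beside 25.4% of the genes, and 0 of 10 had an unadjusted p under 0.05, beside 37.1%. The 10 values then lay between -0.39 (*Marco*) and 0.47 (*Cd163*) with a median of 0.08, which was -0.09 without replicate 1 of WT APAP and -0.04 without replicate 2 of WT vehicle. *Clec4f* was at -0.05 with an interval of -0.58 to 0.49, and *C1qa*, the most precise, at 0.24 with -0.14 to 0.62.

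**Figure D2:**
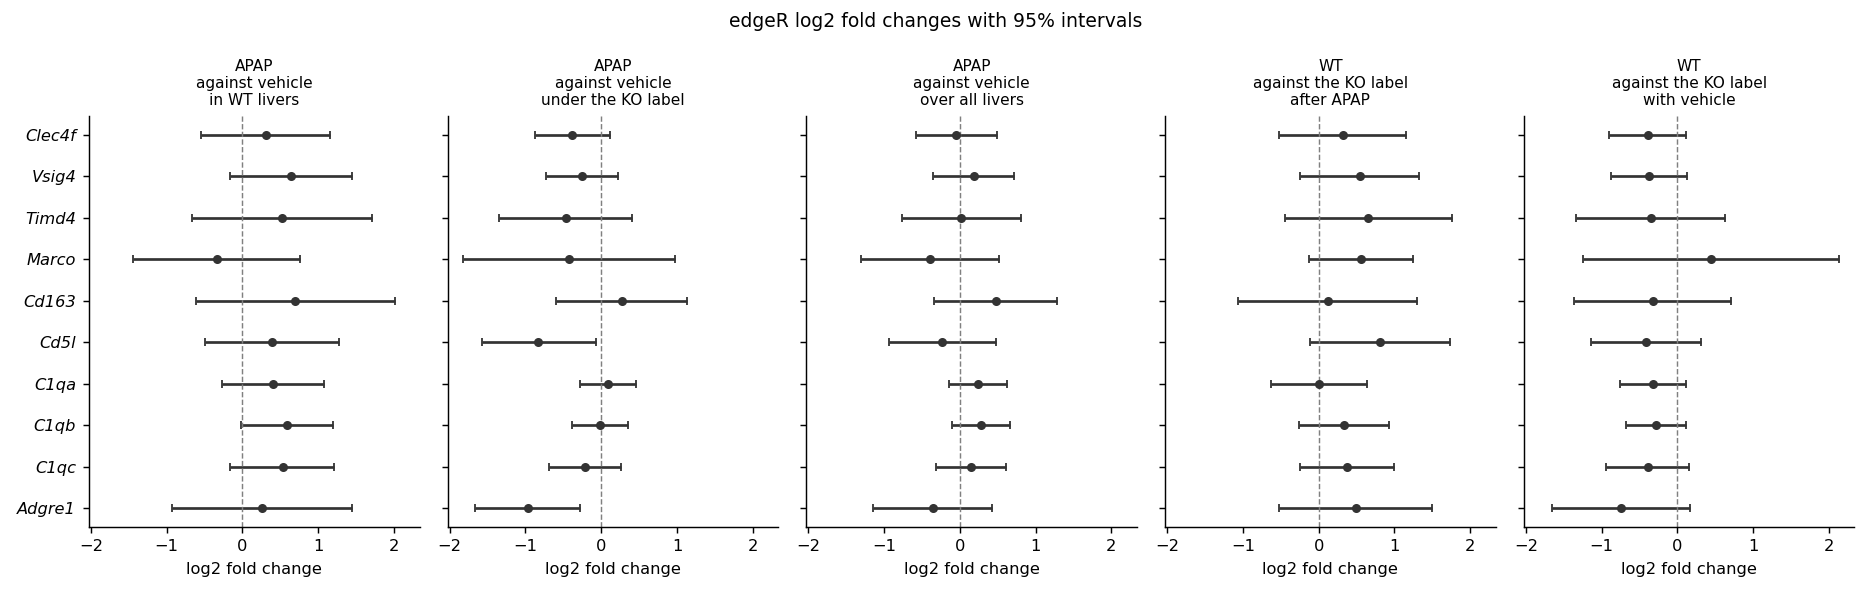
Log2 fold changes of the 10 genes (points) with 95% intervals from edgeR (bars) in 5 comparisons, on a shared horizontal axis with a dashed line at 0. In WT livers 9 of 10 points lie right of the line, under the KO label 8 of 10 lie left of it, and the intervals of *Cd5l* and *Adgre1* under the KO label are the only ones that do not cross it.

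Livers of the same group differed widely in these genes. Averaged over the 10 genes, each centred on its own mean over the 12 livers, the log2 level was 0.29, -0.48 and -0.27 in replicates 1 to 3 of WT vehicle and 0.57, 0.54 and -0.60 in WT APAP. Under the KO label it was 0.72, -0.22 and -0.14 with vehicle and 0.15, -0.24 and -0.31 after APAP. The SD within groups was thus 0.484, while the group means lay only between -0.15 (WT vehicle) and 0.17 (WT APAP), and the highest liver was 2.5-fold above the lowest. These levels rest on TMM-scaled CPM. On the TPM scale, replicate 1 of WT APAP lay below the 12-liver mean for all of the genes but *Vsig4* and *Timd4*. There *Clec4f* stood at 31.2 against a mean of 36.6 TPM and *C1qa* at 25.4 against 30.1 TPM, with *Vsig4* at 16.0 against 14.1 TPM. In WT vehicle, replicate 1 was the highest of the 3 for 10 of 10 genes, whereas it was highest for 31.6% of all 16509 genes kept. Replicate 1 was also highest for 9 of 10 genes in KO vehicle (34.6% of all genes) and in KO APAP (30.6%), and replicate 3 was the lowest of WT APAP for 9 of 10 (24.2%). Replicate numbers did not mark shared experiments in the sources used here. The median within-group SD of log2 CPM was 0.538 over the 10 genes and 0.338 over all genes, running from 0.312 for *C1qb* to 0.865 for *Marco*.

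*C1qc* lay closest to the mean of the 10 genes, with a root mean square difference of 0.162 on the log2 scale over 12 livers, and *Cd163* (0.412) and *Marco* (0.709) lay farthest, beside a median of 0.532 over the 10902 genes ranked. Each of the 10 is part of that mean and the ranked genes are not, so part of the members' closeness is built in. Relative to *Clec4f*, the CPM of *C1qc* spanned 1.69-fold over the livers and that of *Marco* 7.18-fold. The genes outside the 10 whose profile came nearest to the mean were *Cfp* (0.136), which encodes properdin, *Themis2* (0.168), *Arhgap30* (0.174), *Pik3cd* (0.202), which encodes a leukocyte phosphoinositide 3-kinase subunit, and *Vav1* (0.21), a guanine nucleotide exchange factor of blood cells. Nearest to *Clec4f* alone were *Cfp* (0.151), *Cyp4b1* (0.19) and *Arhgap45* (0.239). *Cfp* stood at 14.0, 8.44 and 9.90 CPM in WT vehicle and at 15.3, 16.2 and 7.93 CPM in WT APAP, with the lowest value again in replicate 3 of WT APAP.

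**Figure D3:**
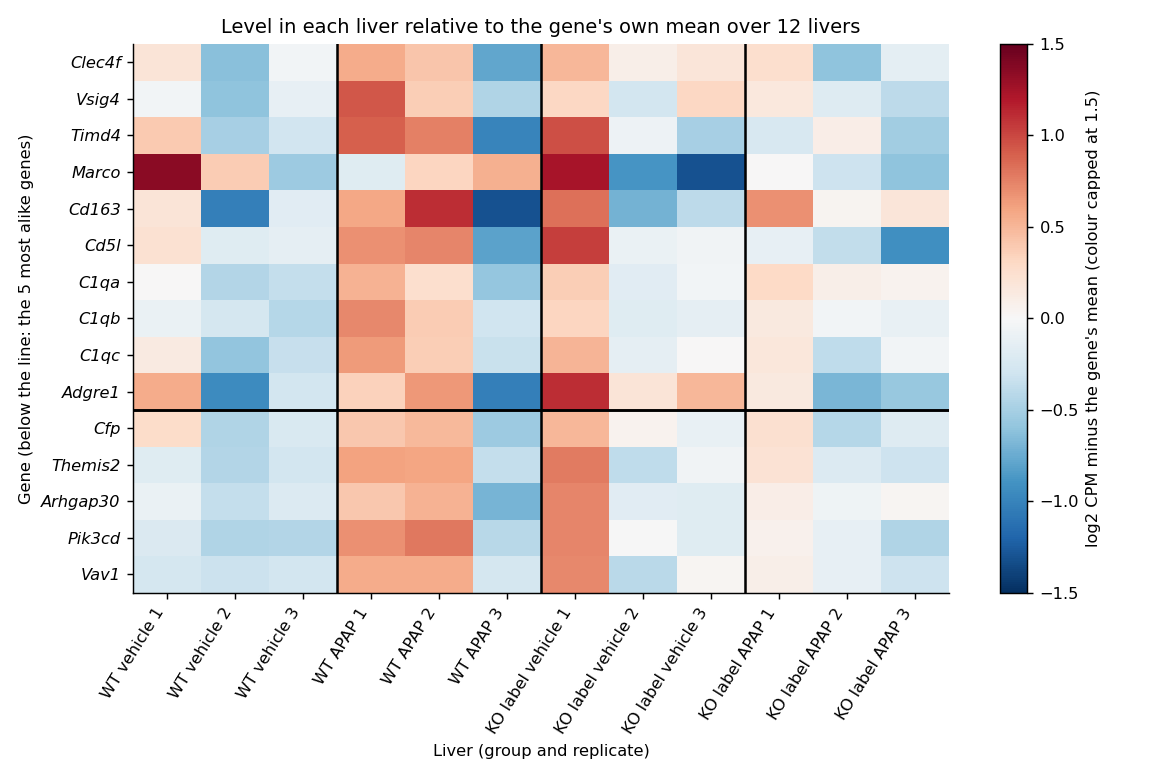
Heat map of log2 CPM in each liver minus the gene's own mean over 12 livers, for the 10 genes above the horizontal line and the 5 nearest other genes below it, with vertical lines between groups and colour from blue (lower) to red (higher), capped at 1.5. On this CPM scale the columns rather than the groups carry the colour. Replicates 1 and 2 of WT APAP and replicate 1 of KO vehicle are red for 9 or 10 of the 10 genes. Replicate 3 of WT APAP is blue for 9. The red of replicate 1 of WT APAP did not hold on the TPM scale, where most of the 10 genes lay below their mean in that liver. What made the 2 scales differ was not tested.

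Markers of other cells moved with this pattern in part, and their part in it was not tested. In WT APAP, 13 sinusoidal endothelial markers summed to 570, 449 and 328 CPM in replicates 1 to 3 and 13 lymphocyte markers to 8.10, 4.90 and 2.00 CPM, in the same order as most of the 10 genes in CPM. That order rests on the CPM scale. In TPM, replicate 1 of WT APAP lay below replicate 2 for each of the 10 genes, as for *Clec4f* (31.2 against 53.2 TPM) and *C1qa* (25.4 against 39.5 TPM). The endothelial sum was 407, 366 and 356 CPM in WT vehicle, 425, 402 and 411 CPM in KO vehicle and 404, 339 and 338 CPM in KO APAP, so that replicate 1 was the highest of each group. The 17 pan-macrophage genes, none of them a member, summed to 309, 240 and 135 CPM in WT APAP and to 289, 152 and 186 CPM in KO vehicle. Hepatocyte markers, which dominate the tissue, summed to 86600 to 149000 CPM over the 12 livers. In WT APAP they too fell from replicate 1 to 3 (149000, 105000 and 95600 CPM), so this order was not particular to other cells. In each other group their sum was highest in replicate 2. The lymphocyte sum was 2.85, 2.24 and 2.3 CPM in WT vehicle. It was highest in replicate 3 of KO vehicle (5.89, 2.98 and 6.36 CPM) and of KO APAP (3.02, 3.39 and 3.57 CPM), unlike most of the 10 genes.

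Genes of the same cells outside the 10 were read from lists of other Kupffer cell, macrophage and monocyte genes. Over all 12 livers, 3 of 17 other Kupffer cell-enriched genes changed after APAP, against 25.4% of all genes in that fit, with a list median of 0.01 beside 0.01 over all genes. *Hpgd*, which encodes a prostaglandin-degrading enzyme, fell by 0.88 on the log2 scale (adjusted p = 0.0018 by edgeR). *Id3*, a transcriptional inhibitor needed by Kupffer cells but not restricted to them, rose by 1.97 (adjusted p = 0.0205 by edgeR). *Id3* was at 9.31, 162 and 26.5 CPM in WT vehicle, where replicate 2 overlapped the 108 to 278 CPM of WT APAP, and at 11.0 to 14.0 CPM in KO vehicle against 67.1 to 91.3 CPM in KO APAP. Its call was lost without replicate 2 or replicate 3 of KO vehicle (adjusted p = 0.0534 and 0.0516 by edgeR), and its rise was 2.87 without replicate 2 of WT vehicle.

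Among 17 pan-macrophage genes, 3 rose and 0 fell over all livers, against 25.4% of all genes called, with a median of 0.12. *Cd68*, a lysosomal glycoprotein, stood at 3.91, 5.70 and 3.97 CPM in WT vehicle and at 16.1, 14.1 and 14.9 CPM in WT APAP, and under the KO label at 6.14, 4.15 and 4.64 CPM with vehicle and at 13.1, 8.55 and 14.8 CPM after APAP. All 6 livers given APAP lay above all 6 given vehicle, the rise was 1.51 (SE 0.17, adjusted p = 8.1e-05 by edgeR), and it passed in WT livers alone (1.75, adjusted p = 0.0114) and under the KO label alone (1.30, adjusted p = 0.00776). In WT livers that call was lost without replicate 3 of WT APAP or replicate 1 or 3 of WT vehicle (adjusted p from 0.0683 to 0.0766 by edgeR). *Cd14*, the lipopolysaccharide co-receptor, rose by 2.55 (adjusted p = 0.00495 by edgeR), from 1.44 to 5.41 CPM over the vehicle livers to 4.44 to 51.8 CPM after APAP, the top value being replicate 1 of WT APAP, without which the rise was 1.73 (adjusted p = 0.00663 by edgeR). In WT livers *Cd68* was the only gene of the macrophage, monocyte, uptake, activation, niche and complement lists to pass, in a fit that called 2.05% of all genes. *Irf8*, a myeloid transcription factor, rose by 0.69 (adjusted p = 0.00708 by edgeR). Under the KO label alone 3 rose and 2 fell of 17, against 22.6% of all genes called. The 2 that fell, named after their values were seen, were *Aif1* (by 1.42, adjusted p = 0.0215 by edgeR) and *Cybb* (by 0.93, adjusted p = 0.0435 by edgeR). *Aif1* was low, at 0.876 to 1.53 CPM in KO vehicle and 0.352 to 0.555 CPM in KO APAP. The list median differed in sign by label. It was 0.73 in WT livers, with 15 of 17 genes above 0, and -0.55 under the KO label, with 4 of 17 above 0. In the interaction fit 0 of the 17 passed, and unadjusted p was under 0.05 by edgeR for 4, against 5.14% of all genes. The list sum was highest in replicate 1 of WT APAP (309 CPM) and replicate 1 of KO vehicle (289 CPM). How far the medians rest on these 2 livers was not tested.

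**Figure D4:**
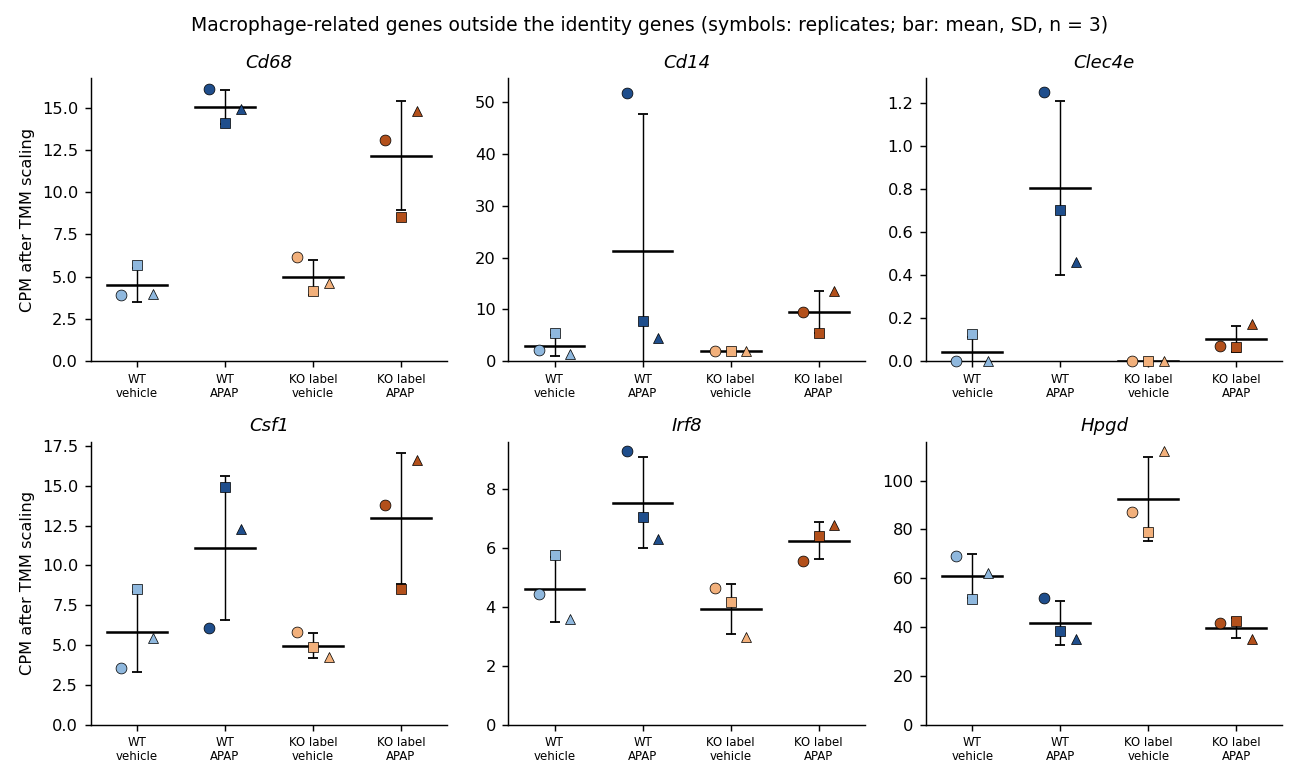
Levels of 6 macrophage-related genes outside the 10 identity genes in the 12 livers, in CPM after TMM scaling on linear axes from 0, with 1 symbol per replicate, a bar for the mean and a line for the SD (n = 3), cut at 0. *Cd68* separates the livers given APAP (8.55 to 16.1 CPM) from those given vehicle (3.91 to 6.14 CPM), while *Cd14* in WT APAP is spread from 4.44 to 51.8 CPM.

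Monocyte genes gave 1 rise and 0 falls among 13 tested of 14 over all livers, against 25.4% of all genes called, with a median of 0.70. The rise was of *Nr4a1*, an immediate early nuclear receptor made by many cells (5.33, adjusted p = 0.0011 by edgeR), which reached 296 CPM in replicate 1 of WT APAP and 6.32 to 25.9 CPM in the other livers given APAP, against 0.597 to 1.76 CPM with vehicle. Without that replicate the rise was 3.67 (adjusted p = 0.000151 by edgeR). *Cx3cr1*, a receptor of patrolling monocytes, was at -1.43 (adjusted p = 0.0591 by edgeR, 0.029 by DESeq2) with under 1 CPM in every liver. Under the KO label alone *Cx3cr1* fell by 2.60 and *Ccr2*, the receptor that draws monocytes into tissue and named after its values were seen, fell by 1.5 (adjusted p = 0.00701 and 0.0211 by edgeR). There the list gave 1 rise and 2 falls of 9 tested, against 22.6% of all genes called. *Ccr2* was also low, at 0.798 to 1.56 CPM in KO vehicle and 0.356 to 0.524 CPM in KO APAP. In WT livers its mean was 0.566 CPM with vehicle and 0.825 CPM after APAP.

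Genes of macrophage activation gave 2 rises and 0 falls among 12 tested of 16, against 25.4% of all genes called, with a median of 0.53. *Clec4e*, a receptor for a protein released by dying cells, rose by 4.42 (adjusted p = 0.00175 by edgeR) but from very low levels, 0 to 0.126 CPM with vehicle, to 0.461 to 1.25 CPM in WT APAP and 0.0639 to 0.171 CPM in KO APAP. It had no count in 5 of the 6 livers given vehicle, so the fitted value is not an exact fold, and with 1 liver left out it ran from 4.00 to 7.42, the latter without replicate 2 of WT vehicle. *Il1b* rose by 2.29 (adjusted p = 0.0491 by edgeR), with 13.3 CPM in replicate 1 of WT APAP and 0.224 to 3.52 CPM in the other livers given APAP, and that call was lost on leaving out any 1 library other than replicate 2 of KO APAP, replicate 1 of KO vehicle or replicate 3 of WT APAP (adjusted p up to 0.106 by edgeR). *Tlr4*, the lipopolysaccharide receptor, was at 0.82 (adjusted p = 0.0538 by edgeR, 0.0271 by DESeq2). For uptake of dying cells, 3 of 15 genes tested rose and 2 fell, against 25.4% of all genes called, with a median of -0.23. *Pros1*, protein S, the bridge between dying cells and TAM receptors and made in large part by hepatocytes, fell by 0.86 (adjusted p = 0.000392 by edgeR), from 37.5 to 60.5 CPM down to 20.3 to 30.3 CPM. *Cd300lf* rose by 1.30 and *Stab1*, a scavenger receptor shared with sinusoidal endothelium, by 0.42 (adjusted p = 0.0164 and 0.0316 by edgeR). The *Stab1* call was lost without replicate 1 or 3 of KO APAP, replicate 3 of KO vehicle or replicate 2 or 3 of WT vehicle (adjusted p from 0.0529 to 0.08 by edgeR). The other calls, named after their values were seen, were a rise of *Tyro3* (1.38) and a fall of *Lrp1* (-0.61), with adjusted p = 0.038 and 0.0488 by edgeR. Both were lost without replicate 2 of WT vehicle (adjusted p = 0.0595 and 0.0935 by edgeR), leaving 1 rise and 1 fall in the list.

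The niche that keeps Kupffer cells showed 2 rises and 1 fall among 12 tested of 13, against 25.4% of all genes called, with a median of 0.04. *Csf1*, the growth factor of macrophages, rose by 1.16 (adjusted p = 0.00665 by edgeR), from 3.53 to 8.51 CPM to 6.06 to 16.6 CPM, with overlap. *Id1*, a target of bone morphogenetic protein signalling, rose by 1.61 (adjusted p = 0.0105 by edgeR). The partners of C1q, which hepatocytes make, gave 0 rises and 4 falls among 9, against 25.4% of all genes called, with a median of -0.41. *C2* fell by 0.83, *C1ra* by 0.42 and *C1s1* by 0.50 (adjusted p = 0.000393, 0.00517 and 0.00525 by edgeR), and *Serping1*, named after its values were seen, by 0.38 (adjusted p = 0.0211 by edgeR), whereas the C1q chains themselves lay between 0.15 and 0.28 without passing.

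Lists for the other cells of the tissue were read in the same 12-liver fit, in which 25.4% of all genes were called. Sinusoidal endothelial markers gave 3 rises (*Lyve1*, *Bmp2* and *Pecam1*) and 0 falls of 13, neutrophil markers 1 rise (*Cxcr2*) of 8 tested and platelet markers 2 rises (*Ppbp* and *Pf4*) of 3 tested, the platelet sum being 22.6 CPM in replicate 1 of WT APAP and at most 5.05 CPM elsewhere. Without that replicate the *Cxcr2* and *Pf4* calls were lost (2.39 and 0.74, adjusted p = 0.0901 and 0.118 by edgeR) and the *Ppbp* value was 6.68 in place of 8.86. Without replicate 2 of WT vehicle the *Pf4* call was lost (adjusted p = 0.0889 by edgeR), and 5 of 9 neutrophil markers tested were higher after APAP. With all 12 livers, 8 of 8 neutrophil markers tested lay above 0, with a median of 2.67. Of these, 7 had an unadjusted p under 0.05 by edgeR, against 37.1% of all genes. Lymphocyte, dendritic cell and erythroid markers gave 0 calls of 12, 8 and 6 tested, at unadjusted p under 0.05 for 1, 0 and 0 of them. Stellate cell markers gave 1 fall (*Lrat*) of 12, which was lost without replicate 1 of WT APAP (adjusted p = 0.0802 by edgeR). Hepatocyte markers gave 3 falls (*Glul*, *Cyp2e1* and *Pck1*) of 13.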

How the data were processed

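Values for the 10 genes were taken from 1 table of whole-liver RNA-seq with 12 libraries (3 per group), assigned by their labels. RNA libraries were made with the TruSeq Stranded mRNA kit (paired reads of 100 bases). The processing notes of the submitters list FastQC 0.11.7, Trimmomatic 0.38, HISAT2 2.1.0, Bowtie2 2.3.4.1 and StringTie 2.1.3b, with mm10. The authors deposited read counts as whole numbers without normalization, which may be rounded coverage estimates if StringTie made them, and the strand setting is not given in the sources used here. The deposited FPKM values, relative to transcript length and sequencing depth, entered no test. TPM values deposited by the authors served for levels between genes.

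Counts were TMM-scaled and tested with edgeR 4.0.16 (quasi-likelihood, filterByExpr, Benjamini-Hochberg over all genes, threshold 0.05) in R 4.3.3, each pairwise comparison on its 6 livers, and the additive and interaction fits on 12. Alternatives were the size factors and Wald test of DESeq2 1.42.0, no filter, at least 10 counts in every liver, all 12 livers in each fit, a replicate block, limma 3.58.1 on TPM (quantile-normalized log2 values, with a constant of 1 or 0.1 added), and omission of each liver in turn. Intervals are at 95%. The members and 15 gene lists were chosen with earlier results of these data known. From each list at most 3 genes were named, by smallest p over 12 livers. Some genes counted in these lists are not reported here by name. Those nearest in profile were ranked by root mean square difference among genes with mean log2 CPM of at least 1. Promoters came from RefSeq. Each fit was first tested on simulated counts with 200 changed genes. Replicates differed beyond sampling noise in counts (chi-square per gene at least 87.74), so none was merged.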

Additional observations from a re-analysis of the deposited data

How the results depend on the processing

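The number of members that passed was 0 in each comparison under every alternative, except under the KO label for APAP against vehicle. There it was 2 with DESeq2's Wald test and 2 with the replicate block (*Cd5l* and *Adgre1* in both), 1 with at least 10 counts in every liver and 1 with edgeR's newer quasi-likelihood method, added after the data were seen (*Adgre1* in both), and 0 to 1 when each liver was left out in turn, *Adgre1* (adjusted p = 0.0285 by edgeR) without replicate 1 of KO APAP and *Cd163* without replicate 1 of KO vehicle. The numbers do not pair the livers (correlations of same-numbered deviations -0.264 to 0.107), so the block shares only a number. Its counts of genes called were 62 of WT, against 322, and 2761 under the KO label, against 3538. The WT count was 1334 with DESeq2, 1523 with all 12 livers in one fit and 136 with limma without a filter, and 41 to 442 with 1 liver left out. With all 12 livers in one fit the KO count was 2249, and 1995 to 3368 with 1 liver left out. Between labels it was 36 with DESeq2 against 5 after APAP, and 120 against 4 with vehicle, and the other settings on all livers gave 0 to 7 and 0 to 5. Beyond the members, the block, limma and filter settings were followed only for genes named by smallest p in the Kupffer cell, macrophage, monocyte, uptake, activation, niche and complement lists. Genes named after their values were seen, those of the lists for other cells and *Cx3cr1* under the KO label were not followed. Among the calls followed, the block ended the *Cd68* call in WT (adjusted p = 0.0768 by edgeR) and the *Il1b* call (0.0907), and changed no other. Limma ended the calls of *Stab1* (adjusted p from 0.0513 to 0.0822), *Il1b* (0.0671 to 0.197) and, without a filter, *Clec4e* (0.0601), edgeR without a filter that of *Il1b* (0.0527), and all 12 livers in one fit that of *Cd14* under the KO label (0.0811), while calling *Cd14* in WT (0.0495). The members' medians kept their sign except over all livers (-0.09 to 0.27 with 1 liver left out) and under the KO label (-0.45 to 0.06).

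Values that had not passed changed sign as follows, and the cause was not tested. With the replicate block, *Marco* and *C1qb* under the KO label were at 0.00, and between labels after APAP *Cd163* was at -0.15 and *C1qa* at -0.06. In that comparison *C1qa* was at -0.01 with all 12 livers and -0.14 with limma at every setting, and *Cd163* at -0.05 (log2(TPM + 1), with and without a filter) and -0.11 (log2(TPM + 0.1)). With the same limma settings *Timd4* over all livers was at -0.03 and -0.06, and the *Marco* interaction at -0.12 and -0.23. With each liver left out in turn, the log2 values that crossed 0 spanned the following ranges. For APAP in WT livers they were *Adgre1* -0.10 to 0.74 and *Marco* -0.71 to 0.27. For APAP under the KO label they were *C1qb* -0.11 to 0.19, *Timd4* -0.74 to 0.10, *Marco* -0.83 to 0.84, *C1qc* -0.35 to 0.02, *Cd163* -0.01 to 0.90 and *C1qa* -0.02 to 0.29. Between labels after APAP they were *Cd163* -0.39 to 0.56 and *C1qa* -0.25 to 0.27. Between labels with vehicle they were *Timd4* -0.67 to 0.20, *Cd163* -0.61 to 0.30, *Cd5l* -0.62 to 0.06 and *Marco* -0.16 to 1.71. For APAP over all livers they were *Clec4f* -0.18 to 0.08, *Marco* -0.57 to 0.13, *Cd5l* -0.38 to 0.04, *Timd4* -0.16 to 0.31 and *Vsig4* -0.02 to 0.30. For the interaction they were *Marco* -1.16 to 0.71 and *Cd163* -0.19 to 0.86.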
